A study of Mus musculus with 6 samples.

Results

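Ccl2, Ccl7, Ccl12, Ccl6, Ccl9 and Cxcl16 encode 6 mouse chemokines, small proteins that attract leukocytes. They were chosen by name, and all 6 were found among the 19361 genes analysed in brain myeloid cells. The assay was Drop-seq, in which every captured transcript copy is counted once by a molecular tag, the UMI, and assigned to a cell by its barcode. The libraries came from female C57BL/6 mice, 2 to 3 months of age. Naive 1 and naive 2 were wild-type mice without tumour. Metastasis 1 and metastasis 2 were wild-type mice with brain metastases grown for 2 to 3 weeks after injection of E0771 mammary carcinoma cells into the heart. The Cx3cr1+/- and Cx3cr1-/- libraries, 1 each and called het and null here, also came from mice with E0771 metastases, so no mutant library lacks tumour. Each library of unmodified mice held 1 brain and each mutant library pooled 2. Brains were perfused with PBS, digested with a papain kit, and passed over a Percoll gradient and a magnetic enrichment for Cd11b. That enrichment, which also retains NK cells, sets in part which cells could be seen.

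CCL2, CCL7 and CCL12 are ligands of CCR2, the receptor by which classical monocytes leave the bone marrow and enter inflamed tissue. CCL6 and CCL9 are ligands of CCR1 and are abundant in myeloid cells of the mouse. CXCL16 is made as a transmembrane protein with a chemokine head on a stalk, from which the metalloproteinases ADAM10 and ADAM17 can release it, and it binds CXCR6 on T and NK cells. Microglia are the macrophages of the brain tissue itself, whereas border macrophages line its vessels, meninges and choroid plexus.

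The libraries held between 491621 and 2667099 UMIs over 1000 barcodes each, and 77 to 940 barcodes per library were kept as cells. No pair of libraries shared more than 1 barcode. For the 4 libraries of unmodified mice, the table names and the sample labels disagree on which are naive and which carry metastases. The labels were followed, and every direction between naive and metastasis below rests on them. Replicate 1 was sequenced on a HiSeq 2500 and all other libraries on a NextSeq 500. Cx3cr1, the gene deleted in the mutants, was found at 63.7 UMIs per 1000000 UMIs of the cells summed (CPM) in the microglia-like cells of null and at 1251 CPM in those of het, against 975 to 4448 CPM in the other libraries. The median mitochondrial share of a barcode was 19.3%, 20.3% and 19.4% in naive 2, het and null and 2.96% to 8.64% in the other libraries. In metastasis 1, 457 kept barcodes fell into a cluster led by mt-Rnr1 and Gm26924 that was given no name.

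Cell classes were made without any chemokine gene and named from marker lists. The microglia-like class held 365, 148, 124, 73, 182 and 119 cells in naive 1, metastasis 1, naive 2, metastasis 2, het and null. It joined clusters that differed between libraries. Of the 148 cells in metastasis 1, 144 came from a cluster led by Gpr84 and Osm, whose microglial name rests on a comparison within that library alone. A cluster led by Egr1 and a cluster led by the casein gene Csn1s2a held most of naive 1 and metastasis 2. A cluster led by Ttr held most of naive 2, het and null. The summed level of 12 microglial markers was 16981 CPM in metastasis 1 and 47508 to 81172 CPM in naive 1, naive 2 and metastasis 2. The border macrophage-like class held 26, 1, 4, 3, 10 and 4 cells in the same order. The infiltrating macrophage-like class, with Ms4a7 and Spp1 among its leading genes, held 205 cells in metastasis 1, 6 in naive 2 and 1 in null. These classes depended on the clustering. At a Leiden resolution of 0.5 no cluster was named infiltrating macrophage-like, the monocyte-like class of metastasis 1 held 259 cells, and its microglia-like class held 4. At a mitochondrial limit of 25% the corresponding numbers were 0, 239 and 629, and at resolution 2 they were 204, 34 and 162. Of those 629, 621 came from a cluster led by mt-Rnr1 and S100a6, with the carcinoma marker Rhox5 among its leading genes. The border class had Pf4 at 1259 to 2820 CPM in the 5 libraries with at least 3 such cells, against 2 to 77 CPM in microglia-like cells. A monocyte-like class held 32, 3, 14 and 8 cells in metastasis 1, naive 2, het and null, and its first leading genes were S100a8 and S100a9, which neutrophils also express. A cluster led by the MHC class II genes Cd74 and H2-Eb1 kept no name. All 52 cells of a carcinoma-like class came from metastasis 1. By the sample labels, metastasis 2 held no carcinoma-like, infiltrating macrophage-like, monocyte-like or Cd74-led cell. Naive 2 held no carcinoma-like cell, but 6 infiltrating macrophage-like, 3 monocyte-like and 22 Cd74-led cells. In replicate 1 the carcinoma-like cells thus lay in the library labelled metastasis. Neither library of replicate 2 held any, and whether its labels or its table names are right was not settled.

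UMIs of the CCR2 ligands were also found in classes other than macrophages and monocytes. In metastasis 1, the 22 NK-like cells, for example, held Ccl2 at 356 CPM (exact 95% Poisson interval 204 to 578), Ccl7 at 111 CPM (36.1 to 260) and Ccl12 at 223 CPM (107 to 409). The 52 carcinoma-like cells of that library, its deepest, held Ccl2 at 38.4 CPM, Ccl7 at 28.4 CPM and Ccl12 at 31.7 CPM. Whether the UMIs in NK-like cells came from free RNA, doublets or the cells themselves was not tested. In the same library the microglia-like cells held Ccl2 at 448 CPM (372 to 534) and Ccl7 at 112 CPM (76.0 to 159), so neither stood above the NK-like cells beyond counting error. Their Ccl12, at 1318 CPM (1186 to 1460), did. All intervals on levels, shares and ratios in single libraries cover counting error alone.

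Ccl12 was thus the CCR2 ligand whose microglia-like level in metastasis 1 lay above the NK-like level. Its level was 279 and 607 CPM in naive 1 and 2, 1318 and 258 CPM in metastasis 1 and 2, 796 CPM in het and 1273 CPM in null. The naive and metastasis groups overlapped, and the replicates of each group differed from one another. Ordered by level, metastasis 1 and null had overlapping intervals at the top, het and naive 2 followed with intervals that did not overlap, and naive 1 and metastasis 2 overlapped at the bottom. Few cells set part of this order: 3 cells held 270 of the 560 Ccl12 UMIs in null and 23 of the 38 in metastasis 2. Without the 3 top cells of each library, null was at 749 CPM, het at 664 CPM, metastasis 2 at 109 CPM and naive 1 at 229 CPM. In naive 2 and het, the 11 and 14 endothelial-like cells held Ccl12 at 24.5 and 118 CPM, below the microglia-like cells without overlap of the intervals. The barcodes that failed the cell filters held it at 178 to 424 CPM over the 6 libraries, and in metastasis 2 their 239 CPM lay within the microglia-like interval (183 to 354). A Ccl12 UMI was seen in 22.7%, 64.9%, 50%, 19.2%, 72.5% and 58.8% of the microglia-like cells of naive 1, metastasis 1, naive 2, metastasis 2, het and null. Thinned to 800 UMIs per cell, which left out 0 to 79 shallower cells a library, these shares were 14.0%, 38.5%, 25.6%, 14.0%, 34.5% and 38.1%. In the NK-like cells of metastasis 1 the share was 27.3% before and 13.6% after thinning, at a median of 1808.5 UMIs per cell against 1627.5 in its microglia-like cells.

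Ccl2, a founding member of the family, was low in most microglia-like cells. Its level was 149.5 and 88.4 CPM in naive 1 and 2, 448 and 109 CPM in metastasis 1 and 2, 107 CPM in het and 684 CPM in null. Null and metastasis 1 stood above the other 4 libraries. Of the 301 Ccl2 UMIs in null, 224 came from a single barcode of 34456 UMIs, which also held 122 Ccl12 UMIs. Thinned to equal depth, 21.6% of microglia-like cells in metastasis 1 had a Ccl2 UMI (exact 95% binomial interval 15.3% to 29.1%), against 4.0% to 9.09% in the other libraries. The NK-like cells of metastasis 1 had 18.2% (5.19% to 40.3%), so the share in microglia-like cells was not above that of NK-like cells. The unnamed cluster led by mt-Rnr1 and Gm26924 in that library had 18.0% (14.6% to 21.8%), an interval that also overlapped that of microglia-like cells.

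Ccl7, which binds CCR2 and also CCR1 and CCR3, was scarce in microglia-like cells, at 106 and 21.5 CPM in naive 1 and 2, 112 and 6.80 CPM in metastasis 1 and 2, 19.3 CPM in het and 27.3 CPM in null. The barcodes that failed the cell filters held more of it in every library, from 44.9 to 193 CPM. The replicate 1 libraries lay above the rest, and metastasis 2 rests on 1 UMI. Ccl7 in microglia-like cells thus lay below the level of these left-out barcodes throughout.

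The CCR1 ligands Ccl6 and Ccl9 were measured in the microglia-like cells of every library. Ccl6 was at 171, 134, 108, 150, 156 and 184 CPM in naive 1, metastasis 1, naive 2, metastasis 2, het and null. Ccl9 was at 190, 65.0, 167, 177, 139 and 205 CPM in the same order. Each pair of Ccl6 intervals overlapped except that of naive 2 and null, and Ccl9 stood apart in metastasis 1, the lowest of the 6. Cxcl16 was at 105, 282, 172, 136, 194.5 and 209 CPM. Its highest level was in metastasis 1 and its lowest in naive 1, with intervals of 223 to 351 and 81.4 to 133 CPM.

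**Figure D1:**
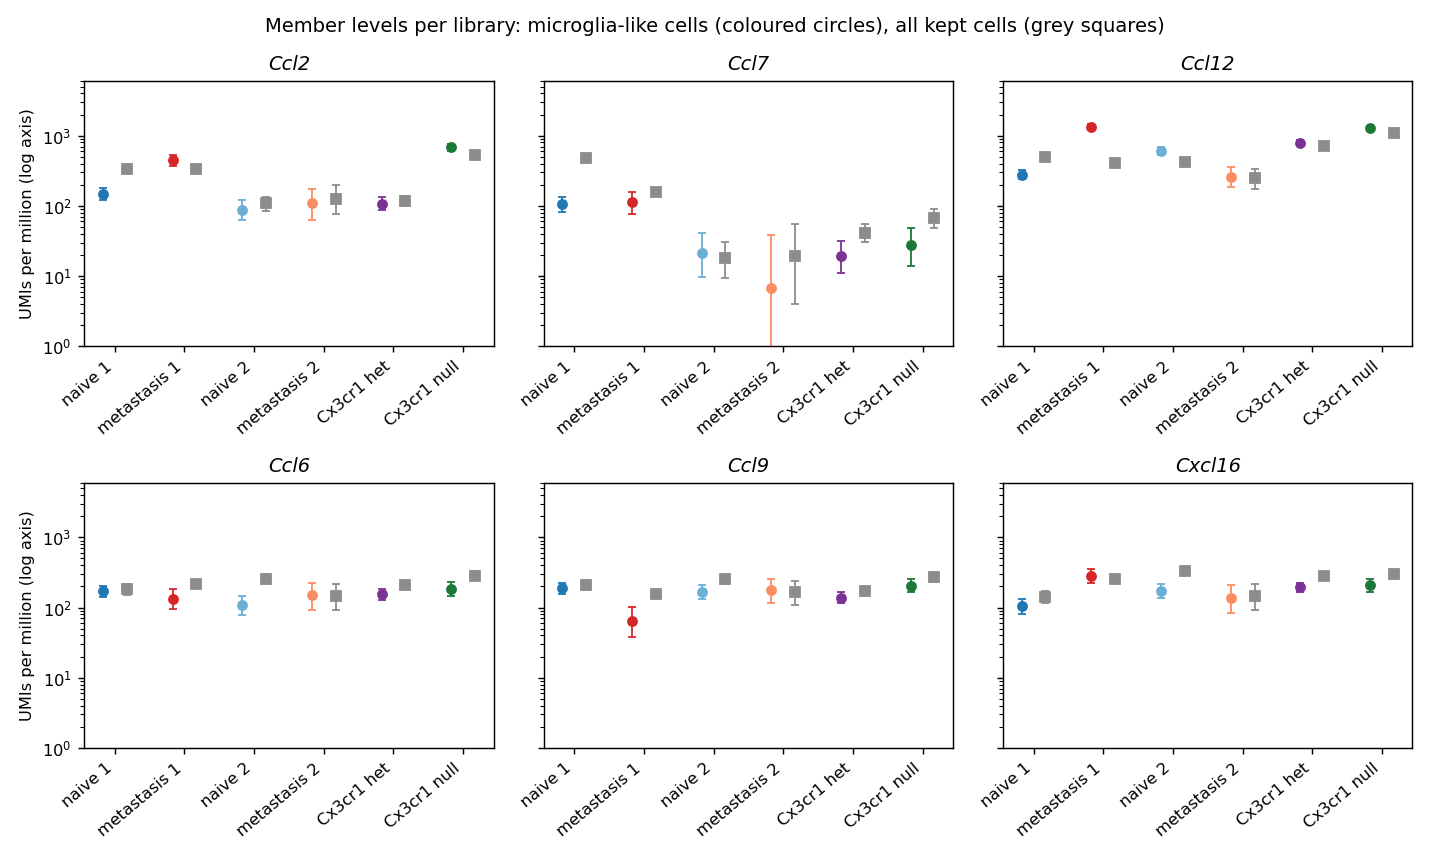
Level of each member in CPM (log axis) per library, with 95% Poisson intervals, in microglia-like cells (coloured circles) and in all kept cells (grey squares). Ccl12 in microglia-like cells runs from 258 CPM in metastasis 2 to 1318 CPM in metastasis 1, and the squares for Ccl7 in naive 1 lie above the circles.

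Metastasis and naive libraries were compared over microglia-like counts summed per library. With edgeR's quasi-likelihood test, 0 of 5585 genes (0%) passed an adjusted p of 0.05, and 184 had an unadjusted p under 0.05. DESeq2 called 1 gene. All 6 members were tested and none passed. The fitted log2 difference, metastasis over naive, was 1.1 for Ccl2 (SE 0.66), 0.75 for Ccl12 (SE 0.74), 0.52 for Cxcl16 (SE 0.49), -0.11 for Ccl6 (SE 0.47), -0.16 for Ccl7 (SE 0.95) and -0.71 for Ccl9 (SE 0.56), with edgeR adjusted p between 0.985 and 0.991. The positive values depended on metastasis 1: without it Ccl2 was at -0.24, Ccl12 at -0.82 and Cxcl16 at -0.07. Without metastasis 2, 447 genes were called, and Ccl2 (1.66, adjusted p = 0.0151, edgeR) and Ccl9 (-1.67, adjusted p = 0.0478, edgeR) were among them, with the lone metastasis library assumed to vary like the naive pair. Without naive 1, naive 2 or metastasis 1, the counts were 8, 19 and 9.

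By the sample labels, the 2 replicates gave opposite directions for Ccl12. The table names exchange the groups in both replicates, which would turn both directions and leave them opposite. An exchange in only 1 replicate would make the directions the same, and was not tested. In replicate 2, naive 2 held 6 infiltrating macrophage-like cells and metastasis 2 held none. Whether the labels of replicate 2 are right was not settled. Within replicate 1, metastasis over naive was 2.24 on the log2 scale (95% interval 1.98 to 2.5), and within replicate 2 it was -1.23 (-1.77 to -0.74). Ccl2 was 1.58 (1.19 to 1.98) within replicate 1 and 0.30 (-0.65 to 1.18) within replicate 2. Cxcl16 was 1.43 (0.94 to 1.92) and -0.34 (-1.13 to 0.39), and Ccl9 was -1.54 (-2.35 to -0.82) and 0.08 (-0.63 to 0.75). Ccl6 and Ccl7 had intervals that included 0 in both replicates. In replicate 1, Ccl2, Ccl12 and Cxcl16 were higher and Ccl9 lower by 2-fold or more, beside 16.6% of 3230 genes that were higher and 11.4% that were lower by that much. In replicate 2, Ccl12 and Ccl7 were lower by 2-fold or more, beside 6.26% of 2123 genes higher and 7.68% lower, and the Ccl7 value rests on 10 UMIs over both libraries. Replicates of the same group differed as well: Ccl12 was 1.12 higher in naive 2 than in naive 1, and -2.35 in metastasis 2 over metastasis 1. There, 6.47% and 3.71% of 3614 genes were 2-fold higher and lower between the naive libraries, and 12.6% and 20.5% of 1625 genes between the metastasis libraries. In metastasis 1 the 12 infiltrating-macrophage markers summed to 4707 CPM in microglia-like cells, against 829 to 1436 CPM in naive 1, naive 2 and metastasis 2, and the part of such RNA in these differences was not tested.

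**Figure D2:**
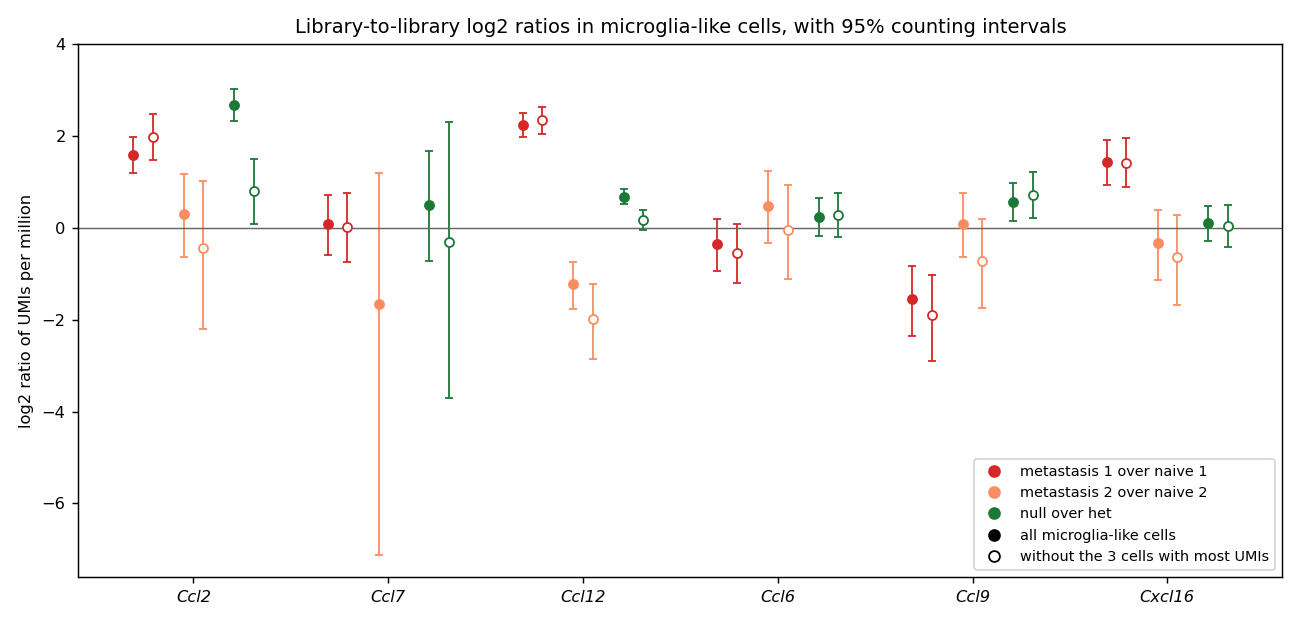
Log2 ratio of CPM between libraries in microglia-like cells for each member, with 95% counting intervals, for metastasis over naive within each replicate and for null over het. Filled points use all microglia-like cells and open points leave out the 3 cells with most UMIs of the member in each library. Ccl12 is at 2.24 in replicate 1 and -1.23 in replicate 2, and Ccl2 in null over het drops from 2.67 to 0.80 without the top cells.

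Over all kept cells the levels in naive 1, metastasis 1, naive 2 and metastasis 2 were 331, 330, 108 and 127 CPM for Ccl2, 474.5, 159, 17.8 and 19.1 CPM for Ccl7, and 493, 414, 416 and 248 CPM for Ccl12. Replicate 1 stood above replicate 2 for Ccl2 and Ccl7 whatever the group. Here 0 of 7968 genes (0%) passed with edgeR, 159 had an unadjusted p under 0.05, and DESeq2 called 0. The 6 members had differences from -1.52 (Ccl7) to -0.04 (Ccl2) and edgeR adjusted p between 0.998 and 0.999. Without naive 1 the Ccl7 difference turned to 2.40 and 34 genes were called, and without metastasis 2 the count was 7.

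Null and het were 1 library each, so their difference has no replicate check. In microglia-like cells Ccl2 was 2.67 higher in null on the log2 scale (2.32 to 3.03). Without the barcode that held 224 of its UMIs the value was 0.82 (0.36 to 1.28), and without the 3 cells with most Ccl2 in each library it was 0.80 (0.09 to 1.5). Ccl12 was 0.68 higher (0.51 to 0.84), and 0.17 (-0.04 to 0.38) without its top 3 cells. Ccl9 was 0.56 higher (0.14 to 0.97), while Ccl6 at 0.24 (-0.18 to 0.65), Cxcl16 at 0.11 (-0.28 to 0.48) and Ccl7 at 0.50 (-0.71 to 1.67) had intervals that included 0. Ccl2 alone passed 2-fold, beside 1.8% of 4505 genes that were higher and 3.17% that were lower by 2-fold or more, and it did not pass without that barcode. The infiltrating-macrophage markers summed to 2596 CPM in the microglia-like cells of null and 1541 CPM in those of het, and their part in these ratios was not tested.

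In naive 1, border macrophage-like cells held most of the Ccl2 and Ccl7. The 26 such cells were 6.5% of kept cells and held 80.9% of Ccl7 UMIs, 60.7% of Ccl2 UMIs and 50.4% of Ccl12 UMIs. In the other libraries their share of Ccl2 was smaller, at 11.4% in naive 2, 20% in metastasis 2, 19.1% in het, 0.62% in null and 0.13% in metastasis 1. Their share of Ccl7 was 7.69% in naive 2, 37.5% in het, 2.44% in null and 0.52% in metastasis 1, and 2 of 3 UMIs in metastasis 2. Ccl7 in this class was at 3315 CPM in naive 1 (292 UMIs), 44.95 CPM in naive 2 (1 UMI), 245 CPM in metastasis 2 (2 UMIs), 428 CPM in het (18 UMIs) and 83.9 CPM in null (1 UMI). That is above microglia-like cells in 5 of 5 libraries, with 3 of the 5 resting on 1 or 2 UMIs. Ccl2 was at 1737 CPM in naive 1 (1473 to 2035), 405 CPM in naive 2 (185 to 768), 490.5 CPM in metastasis 2 (134 to 1256), 618 CPM in het (404 to 905.5) and 168 CPM in null (20.3 to 606). It lay above microglia-like cells in 4 libraries, and below them in null. In null the border value rests on 2 UMIs. The microglia-like level there was 684 CPM, but 190 CPM without the single barcode that held 224 Ccl2 UMIs. Ccl12 was at 2146, 1079, 123, 1664 and 2181 CPM in naive 1, naive 2, metastasis 2, het and null, above microglia-like cells in all but metastasis 2, where it rests on 1 UMI.

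These UMIs were concentrated in few cells. A border macrophage-like cell of naive 1 with 2684 UMIs held 57 Ccl2 and 46 Ccl7 and no Ccl12. Another, of 5170 UMIs, held 68 Ccl7, 38 Ccl12 and 3 Ccl2, together with 14 Mrc1 and 26 Pf4. A further cell, of 8303 UMIs, held 54 Ccl12, 3 Ccl7 and 1 Ccl2. In naive 1 the highest count of each of the 3 CCR2 ligands thus fell on a different cell, but their top cells overlapped. A border macrophage-like cell of 4842 UMIs held 50 Ccl7 and 21 Ccl2. In null, 1 microglia-like cell held the most of both Ccl2 (224) and Ccl12 (122), as did 1 in het (33 and 53). Of 18 border macrophage-like cells in naive 1 with Ccl2, 16 also had Ccl7, against 37.5% of those without Ccl2. However, the cells with Ccl2 were deeper, at a median of 3291.5 UMIs against 1431.5.

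With the library as a block, border macrophage-like and microglia-like sums were fitted with edgeR over 5 libraries. Of 2059 genes tested, 148 passed (7.19%), 83 higher in border macrophage-like cells (4.03%) and 65 lower (3.16%). Ccl7 was removed by the low-count filter and had no test, so 5 members were tested and 4 were called higher. Ccl7 was tested in 6 of the alternative fits and was called higher in each, by 3.57 to 4.46, and no fit that left out naive 1 tested it. Ccl2 was 2.13 higher on the log2 scale (SE 0.32, edgeR adjusted p = 2.94e-09), Cxcl16 1.42 (SE 0.34, adjusted p = 7.40e-04), Ccl6 1.39 (SE 0.34, adjusted p = 0.00147) and Ccl12 1.30 (SE 0.28, adjusted p = 1.25e-04). Ccl9, at 0.76 (SE 0.36), did not pass (adjusted p = 0.245). Ccl2 passed under every filter, tool and left-out library tried and missed the threshold only without the library block (1.84, adjusted p = 0.0815). Ccl12 lost its call without naive 1 (0.76, adjusted p = 0.226) and without the library block (1.24, adjusted p = 0.168). With no low-count filter Ccl12 (0.74, adjusted p = 0.448), Ccl6 (0.89, adjusted p = 0.396) and Cxcl16 (0.92, adjusted p = 0.363) did not pass. With cells gated by markers Ccl6 (0.93, adjusted p = 0.197) and Cxcl16 (0.97, adjusted p = 0.0993) did not, nor did Ccl6 at a mitochondrial limit of 25% (0.90, adjusted p = 0.0744). Ccl6 (0.69, adjusted p = 0.411) and Cxcl16 (0.94, adjusted p = 0.157) lost theirs without naive 2, Cxcl16 also without naive 1 (1.28, adjusted p = 0.0708), and Ccl12 (1.15, adjusted p = 0.0812) and Ccl6 (1.27, adjusted p = 0.127) lost theirs with DESeq2. Without naive 1, 90 genes were called. The 12 microglial markers summed to 20037 to 42854 CPM in the border macrophage-like cells of these libraries, so that class held microglial RNA too, and its part in the differences was not tested.

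**Figure D3:**
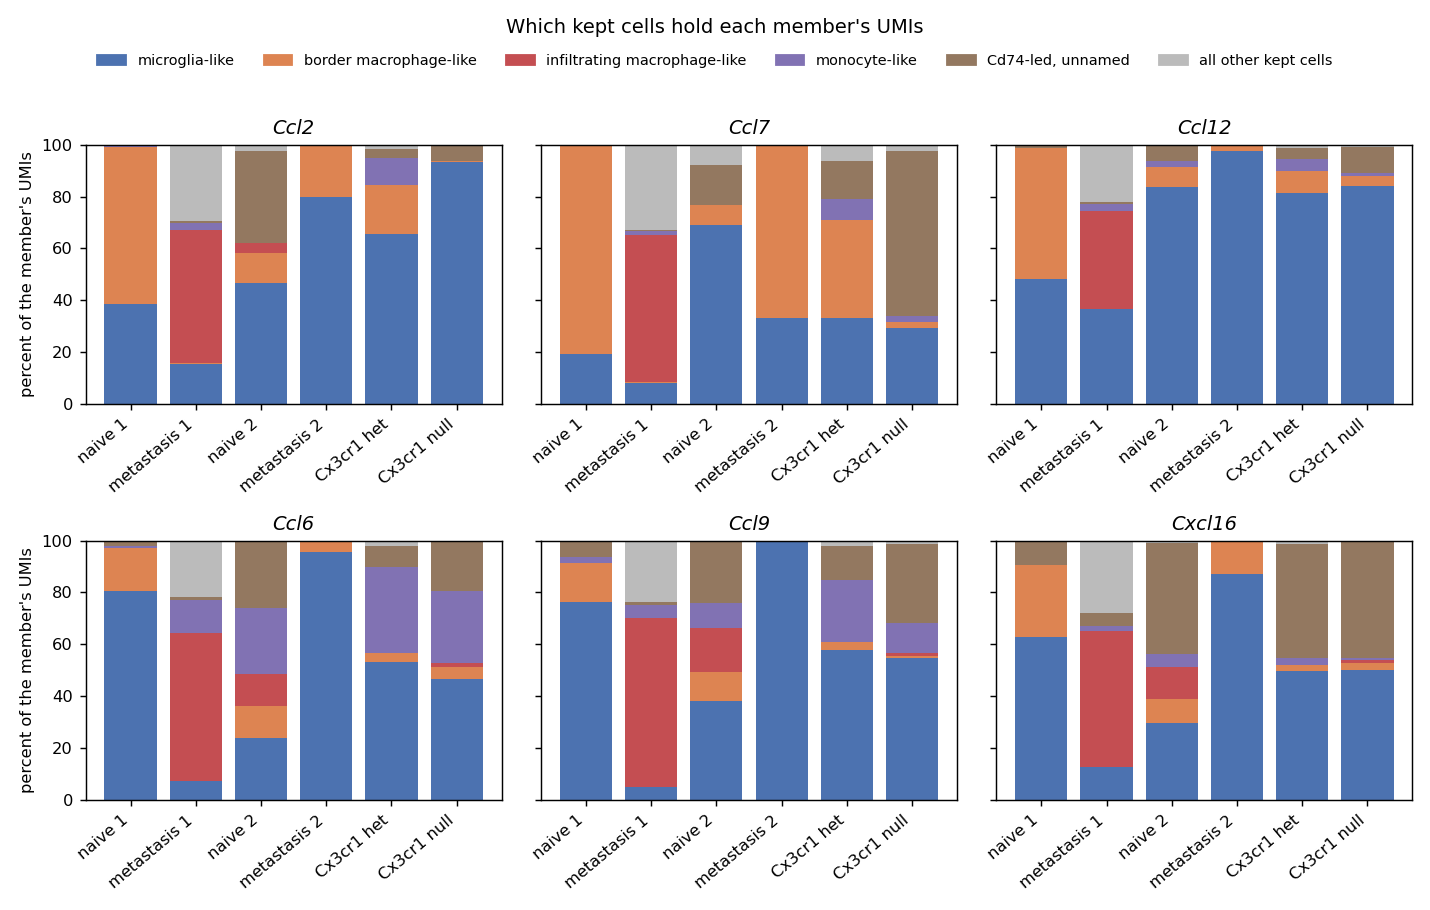
Share of each member's UMIs, in percent, held by each cell class in each library, over all kept cells. The border macrophage-like class holds 80.9% of Ccl7 in naive 1 and the infiltrating macrophage-like class holds 56.7% in metastasis 1, while microglia-like cells hold 81.3% to 97.4% of Ccl12 in the other 4 libraries.

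Infiltrating macrophage-like cells could be described in metastasis 1 only, with no test, and since 205 of the 212 cells came from that library, the class and the library cannot be told apart. They were 21.8% of its kept cells and held 51.3% of Ccl2, 56.7% of Ccl7, 57.4% of Ccl6, 65.1% of Ccl9, 52.4% of Cxcl16 and 37.6% of Ccl12 UMIs. The unnamed cluster led by mt-Rnr1 and Gm26924 was 48.6% of kept cells. It held 24.3% of Ccl2, 27.2% of Ccl7, 18.8% of Ccl6, 20.9% of Ccl9, 24.0% of Cxcl16 and 19.0% of Ccl12 UMIs. In infiltrating macrophage-like cells the levels were 639 CPM for Ccl2, 341 CPM for Ccl7, 469 CPM for Ccl6, 381 CPM for Ccl9 and 501 CPM for Cxcl16. Each was above the microglia-like cells of the same library without overlap of the intervals. Ccl12 went the other way, at 587 CPM (529 to 650) against 1318 CPM. Ccl7 and Ccl12 lay above the NK-like cells beyond counting error, and Ccl2 (578 to 704) touched the interval of the NK-like cells (204 to 578). Thinned to 800 UMIs, 31.2% of infiltrating macrophage-like cells had a Ccl2 UMI (24.9% to 38.0%) and 18.5% a Ccl7 UMI (13.5% to 24.5%). The NK-like cells had 18.2% (5.19% to 40.3%) and 0% (0% to 15.4%), so neither share was separated from that class by its interval. The carcinoma-like cells, at a median of 8703 UMIs before thinning, had 1.92% and 0%. The 6 cells of this class in naive 2 had no Ccl7 or Ccl12 UMI, which allows up to 89.0 CPM of each, and held Ccl6 at 682 CPM, Ccl9 at 919 CPM and Cxcl16 at 890 CPM.

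**Figure D4:**
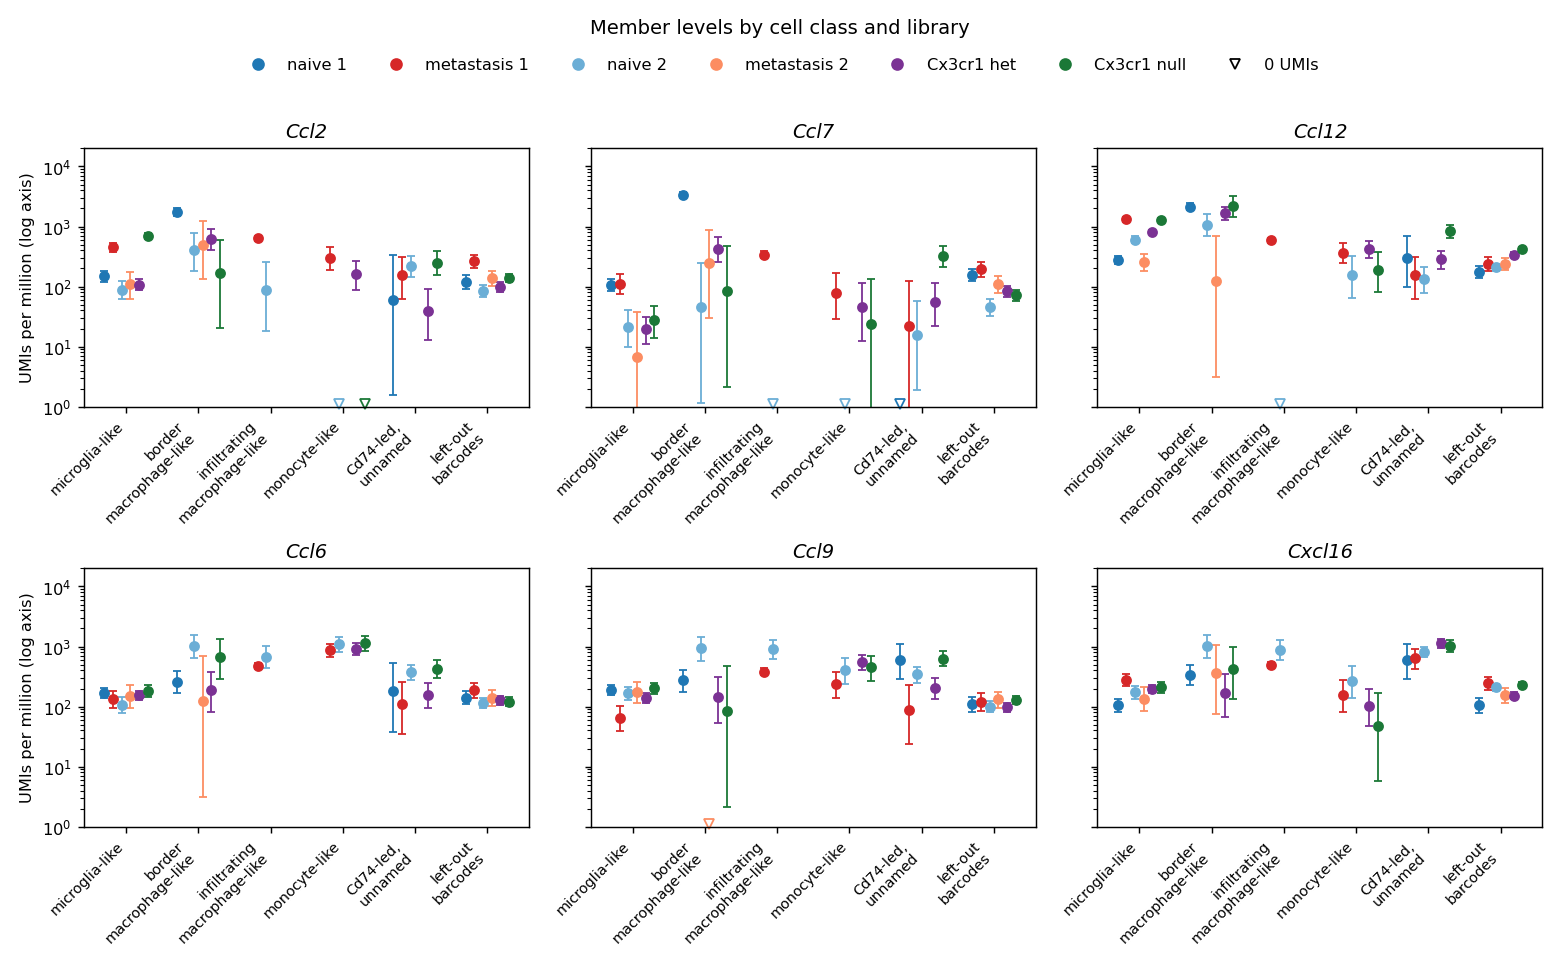
Level of each member in CPM (log axis) by cell class, 1 point per library with at least 3 cells of the class, with 95% Poisson intervals and open triangles for 0 UMIs. Ccl7 reaches 3315 CPM in the border macrophage-like cells of naive 1, Ccl6 lies at 865 to 1139 CPM in monocyte-like cells, and Cxcl16 lies at 607 to 1126 CPM in the cluster led by Cd74 and H2-Eb1.

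Ccl6 and Ccl9 were high in monocyte-like cells. Ccl6 was at 865 CPM in metastasis 1, 1081 CPM in naive 2, 908 CPM in het and 1139 CPM in null, and Ccl9 was at 236, 405.5, 545 and 451 CPM. Both were above the microglia-like cells of the same library in 4 of 4 libraries. However, Ccl9 was not highest in this class throughout. Infiltrating macrophage-like cells of metastasis 1 and naive 2 held it at higher levels. So did border macrophage-like cells of naive 2 and the Cd74-led cluster of null. In het the monocyte-like level of Ccl9 was the highest of these classes. In these monocyte-like cells the 11 monocyte markers measured summed to 4416 to 8473 CPM. The 11 neutrophil markers measured summed to 4587, 2185, 329 and 28577 CPM in metastasis 1, naive 2, het and null, and the 12 microglial markers to 6788, 31292, 25165 and 26464 CPM. The part of these other cell types in the differences was not tested. The 14 and 8 cells of het and null, 5.9% and 5.3% of kept cells, held 33.1% and 27.6% of Ccl6 UMIs. This comparison, chosen after member levels by cluster were seen, was fitted like the border one. Of 3556 genes, 347 passed with edgeR (9.76%), 222 higher in monocyte-like cells (6.24%) and 125 lower (3.52%). Ccl6 was 2.74 higher (SE 0.22, edgeR adjusted p = 6.19e-09), Ccl9 was 1.53 higher (SE 0.25, adjusted p = 1.13e-04) and Ccl12 was 1.78 lower, at -1.78 (SE 0.26, adjusted p = 3.30e-05). Ccl2 at -1.11 (adjusted p = 0.162) and Cxcl16 at -0.66 (adjusted p = 0.245) did not pass in edgeR, and Ccl7 was not tested. With no low-count filter Ccl2 passed (-1.30, adjusted p = 0.00331, edgeR). Ccl2 was at 0 UMIs in naive 2 and null, which allows up to 67.6 and 71.2 CPM. Without metastasis 1 its adjusted p was 0.0468 (-1.53, edgeR), and without naive 2 that of Cxcl16 was 0.0463 (-1.16, edgeR). The count of called genes was 153 without het and 211 without null.

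Cxcl16 was high in the cluster led by Cd74 and H2-Eb1, at 607 and 818 CPM in naive 1 and 2, 636 CPM in metastasis 1, 1126 CPM in het and 1031 CPM in null. Each value stood above every microglia-like value of Cxcl16. In naive 2, the 4 border macrophage-like cells (1034 CPM) and the 6 infiltrating macrophage-like cells (890 CPM) were higher still. The microglial markers summed to 13262 to 37936 CPM in this cluster, and their part in the differences was not tested. At 12.8%, 7.1% and 8.6% of the kept cells of naive 2, het and null, the cluster held 42.8%, 44.1% and 44.6% of Cxcl16 UMIs. In a fit also chosen after member levels were seen, 953 of 3637 genes passed with edgeR (26.2%), 482 higher (13.3%) and 471 lower (13%). Cxcl16 was 2.18 higher (SE 0.23, edgeR adjusted p = 1.83e-09), Ccl9 1.13 higher (SE 0.25, adjusted p = 5.87e-04) and Ccl6 0.80 higher (SE 0.28, adjusted p = 0.0331), and Ccl12 was at -1.48 (SE 0.28, adjusted p = 1.05e-04). Ccl2 did not pass (-0.66, edgeR adjusted p = 0.140). Without naive 2 it did (-1.46, adjusted p = 0.00117), while Ccl6 lost its call there (0.39, adjusted p = 0.487) and without null (0.62, adjusted p = 0.234). Ccl7 was not tested, and 24 of its 26 UMIs in this cluster of null came from 1 cell of 11912 UMIs. The count of called genes was 529 without het and 563 without naive 2.

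**Figure D5:**
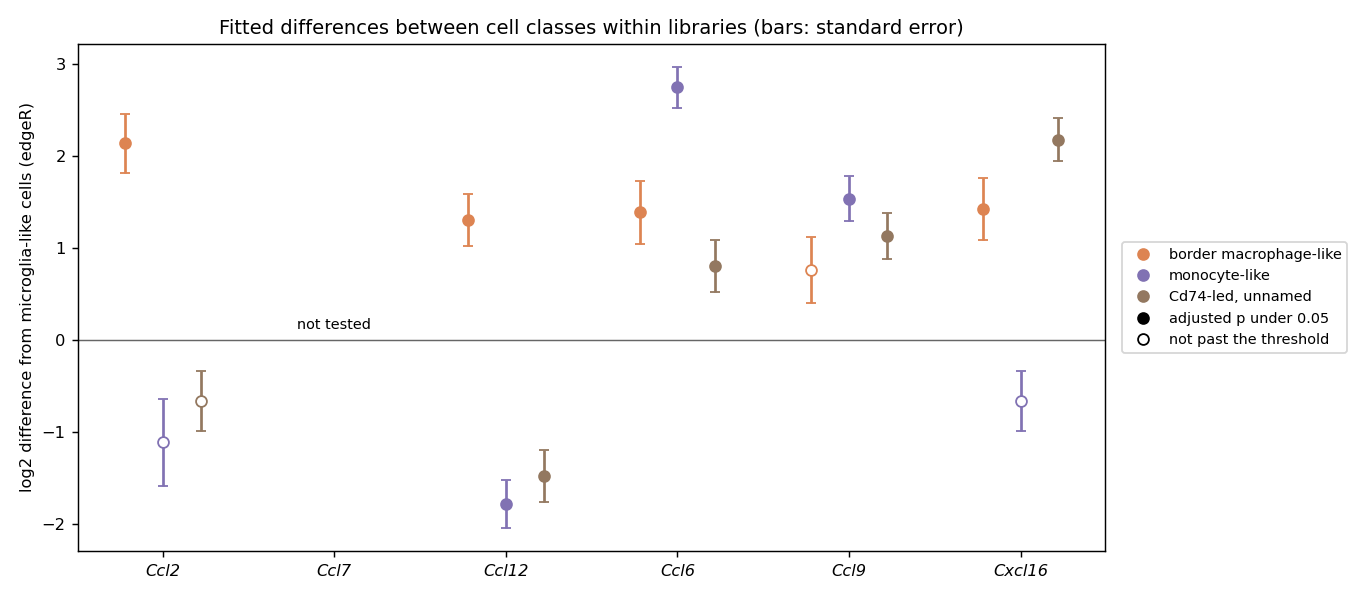
Fitted log2 difference from microglia-like cells (edgeR, library as a block, bars are standard errors) for each member in border macrophage-like cells, monocyte-like cells and the cluster led by Cd74 and H2-Eb1. Filled points passed an adjusted p of 0.05 and open points did not; Ccl7 was not tested. Ccl12 is at 1.30 in border macrophage-like cells and at -1.78 and -1.48 in the other classes.

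The receptors of these ligands were followed in the same fits, from a list of 8 genes, 7 of them measured. Ccr2 was at 20.04, 112, 33.5, 0, 36.2 and 34.1 CPM in microglia-like cells of naive 1, metastasis 1, naive 2, metastasis 2, het and null, and at 485, 406, 601 and 380 CPM in the monocyte-like cells of metastasis 1, naive 2, het and null. Of 4 receptors tested there, Ccr2 (3.24) and Ccr1 (2.12) were called higher in monocyte-like cells, as were 6.24% of all genes tested. The list median was 1.14 beside -0.05 over all genes tested. In the cluster led by Cd74 and H2-Eb1, Ccr2 (3.20) and Ccr1 (2.61) of 4 were called higher, beside 13.3% of all genes. The list median was 1.38 beside -0.06. In border macrophage-like cells, Ccr1 (3.03) and Ccrl2 (0.86) of 3 tested were called higher, beside 4.03% of all genes. The list median was 0.86 beside -0.10. CCRL2 is an atypical receptor that presents chemerin and does not signal like the others. Neither sheddase gene of CXCL16, Adam10 or Adam17, passed in any class comparison.

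Some genes of the lists of other chemokines and inducers also differed between classes. In border macrophage-like cells the neutrophil attractant Cxcl2 was 4.39 higher and Ccl4 was at -0.80, of 4 chemokines tested, with a list median of -0.33 beside -0.10 over all genes, of which 7.19% passed. The cytokine genes Il1b (2.94) and Tnf (-1.18) were the only 2 of 7 tested inducers past the threshold there, with a list median of -0.12. In monocyte-like cells Ccl3 (-0.87), Ccl4 (-0.77) and Cxcl10 (-1.14) of 5 chemokines were lower and Il1b (1.83) of 10 inducers was higher, with list medians of -0.77 and 0.03 beside -0.05 over all genes. At 1 of 10, the inducers' share was near the 9.76% of all genes that passed. In the cluster led by Cd74 and H2-Eb1, where 26.2% of all genes passed, Ccl5 (3.66) of 5 chemokines was higher and Ccl3 (-2.36) and Ccl4 (-1.63) were lower, with a list median of -0.17 beside -0.06 over all genes. Csf1 (-2.44), the 1 growth factor gene tested, was lower. Of 10 inducers, 3 passed in each direction, with a list median of 0.08. Among them, Il1b (2.57) and Irf7 (2.18) were higher there, and Tnf (-2.08), Rela (-1.36) and Nfkbia (-0.83) were lower. Between metastasis and naive, no gene of any of the 5 lists passed, in microglia-like cells or in all kept cells. In microglia-like cells 3 receptors, 2 sheddase genes, 5 chemokines, 1 growth factor gene and 10 inducers were tested. The fitted differences there were -0.64 for Ccrl2 (SE 0.62), 1.13 for Ccr2 (SE 1.00), -0.47 for Adam10, 0.14 for Adam17 and -0.03 for Csf1 (SE 0.78). Among the most abundant other chemokines they were 0.28 for Ccl4, 0.29 for Ccl3, 0.62 for Cxcl2 and 0.13 for Cxcl10. Among the inducers they were -0.87 for Nfkbia, the gene of an NF-kB inhibitor, -0.28 for Tnf, 2.17 for Il1b (SE 0.91) and -0.43 for Ifngr1.

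The genes whose levels tracked each member most closely differed between members. Over 20 sums of a class in a library and 5144 genes, the nearest genes of Ccl2 were Cxcl2 (Pearson r = 0.83), Ccl12 (0.77) and Cd14 (0.75). Those of Ccl7 were the border macrophage markers Mrc1 (0.77) and Pf4 (0.76), then Sdc4 (0.72). Those of Ccl12 were C3ar1 (0.84), Lacc1 (0.83) and Cd33 (0.82). Ccl6 lay nearest to Ccl9 (0.93), Ptpn6 (0.89) and Alox5ap (0.89), and Ccl9 to Fcer1g (0.96), Tyrobp (0.93) and Hcls1 (0.93). Cxcl16 lay nearest to H2-DMb1 (0.93), Npc2 (0.86) and H2-Ab1 (0.84). The sums share libraries and depth, and these correlations describe them without a test.

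The 6 genes lie on chromosome 11 of GRCm38 (GENCODE annotation). Ccl2 (82035571 to 82037453), Ccl7 (82045712 to 82047525) and Ccl12 (82101845 to 82103400) are on the plus strand within 1 cluster. Ccl9 (83572919 to 83578636) and Ccl6 (83587882 to 83593087) neighbour each other on the minus strand, and Cxcl16 (70453983 to 70459984) lies apart on the minus strand. Ccl2 overlaps the antisense gene Gm17268, Ccl6 overlaps E230016K23Rik and Cxcl16 overlaps Zmynd15 on the opposite strand. The strand setting of the counting is not given in the sources used here, so reads over these overlaps cannot be assigned with certainty.

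Promoters are shown for Ccl6, Ccl9 and Ccl12, the only members with an entry in the promoter set used. It held none for Ccl2, Ccl7 and Cxcl16. Ccl6 and Ccl9 were the closest pair of members by level, and Ccl12 went against them in monocyte-like cells. Each sequence is the 150 bases before the start of the gene, 5′ to 3′ along its own strand, from the RefSeq promoter table of GRCm38.p6. Capitals mark matches to the motifs searched on both strands.
Ccl12, chr11:82101695-82101844, plus strand: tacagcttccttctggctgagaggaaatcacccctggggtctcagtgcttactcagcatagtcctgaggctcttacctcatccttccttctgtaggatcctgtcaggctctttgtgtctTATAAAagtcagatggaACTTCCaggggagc
Ccl6, chr11:83593088-83593237, minus strand: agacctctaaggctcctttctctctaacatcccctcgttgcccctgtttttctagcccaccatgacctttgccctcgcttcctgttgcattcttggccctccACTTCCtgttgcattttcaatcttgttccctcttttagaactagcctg
Ccl9, chr11:83578637-83578786, minus strand: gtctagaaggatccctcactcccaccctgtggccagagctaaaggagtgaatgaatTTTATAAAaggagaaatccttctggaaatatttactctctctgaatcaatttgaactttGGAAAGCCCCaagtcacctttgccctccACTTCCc

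The motifs searched over 250 bases before the start were the TATA box TATAAA, the ETS letters GGAAGT, the gamma-activated site as TTC and GAA with any 3 bases between, the CEBP site as TTGC and AA with any 2 bases between, the interferon-stimulated response element as GAAA repeated after any 2 bases, and the NF-kB site as GGG and TTTCC with any 2 bases between. Matches on either strand were counted. The ETS letters were chosen after the promoters were seen. All 3 promoters held the ETS letters within 48 bases of the start, as ACTTCC on the strand shown, and 19.7% of 32851 promoters hold them within 250 bases. Ccl12 held TATAAA 31 to 26 bases before the start and Ccl9 held it 92 to 87 bases before, where it overlaps a match on the other strand, with a further match on that strand 224 to 219 bases before; 12.4% of promoters hold it. Ccl9 also held an NF-kB match 35 to 26 bases before the start, which 1.41% of promoters hold. The interferon-stimulated response element, the gamma-activated site and the CEBP site, held by 2.98%, 7.02% and 9.56% of promoters, did not occur in these windows. Aligned end to end, the Ccl6 and Ccl9 promoters were identical in 46.0% of alignment columns, Ccl12 and Ccl6 in 46.3% and Ccl12 and Ccl9 in 43.5%, so the pair closest by level was no more alike in sequence than Ccl12 and Ccl6. These matches describe letters and say nothing of binding.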

How the data were processed

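Each library's deposited table holds raw UMI counts for 1000 barcodes; the unit was read from the whole-number values. The tools were STAR and Seurat and the build mm10, per the submitters' processing notes. How the barcodes were chosen is not given in the sources used here. Members, lists and comparisons were chosen with earlier results of these data known.

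Barcodes with at least 400 genes and under 10% mitochondrial UMIs were kept, and the 5% with the highest Scrublet score per library were removed as possible doublets. The planned limit was 25%; it was changed to 10% after clusters and member levels had been seen, because at 25% barcodes near 19% mitochondrial UMIs formed 1 unnamed cluster, and 25% is the alternative. With scanpy 1.11.5 (igraph 0.11.9), 2000 variable genes, excluding chemokine, receptor and mitochondrial genes, 30 components and 15 neighbours gave Leiden clusters at resolution 1. A cluster was named where at least 4 of its 50 leading genes were markers of a class from 17 lists and its top 10 genes held no more markers of another class. The allowance for ties and the requirement of detection in 10% of cells were added after clusters were seen.

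Levels are UMIs per 1000000 (CPM) of summed counts. Summed counts were tested with edgeR 4.0.16 (quasi-likelihood test, TMM, filterByExpr, Benjamini-Hochberg over all genes tested, threshold 0.05), in R 4.3.3; the alternative tool was DESeq2 1.42.0. Class comparisons used libraries with at least 3 cells of both classes. Tests were checked on simulated data. Single libraries have exact 95% Poisson, binomial or conditional binomial intervals, and 0 UMIs allows up to 3. Some list genes are not reported here. Named genes are the 6 members, list genes past the threshold or otherwise of highest level in their list, and the 3 nearest genes of each member among genes with at least 200 UMIs, on log2(CPM + 10), over sums of at least 10 cells. Replicate numbers of naive and metastasis share a sequencer; same-numbered libraries deviated with a correlation of -0.14 in microglia-like cells.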

Additional observations from a re-analysis of the deposited data

How the results depend on the processing

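Limits: most calls rest on few cells, on 2 libraries a group or on 1 library. In metastasis against naive, microglia-like cells, calls numbered 1 with DESeq2, 59 with no low-count filter and 8 to 447 with 1 library left out. Blocking on the replicate number gave 0 calls in both metastasis comparisons, and the crossed pairing 1 in microglia-like cells and 0 in all kept cells. With 1 library left out, Ccl2 ran from -0.24 to 1.66, Ccl7 from -3.35 to 1.45, Ccl12 from -0.82 to 1.41, Ccl6 from -0.50 to 0.34, Ccl9 from -1.67 to -0.10 and Cxcl16 from -0.074 to 0.85. At a mitochondrial limit of 25%, Ccl12 was -0.077 and Ccl7 0.014, and Ccl6 was 0.0080 with no doublets removed. At the 25% limit the microglia-like class of metastasis 1 came mostly from a cluster led by mt-Rnr1 and S100a6.

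Over all kept cells, 100 genes were called with no low-count filter and 0 to 34 with 1 library left out. Ccl2 turned to 0.012 with no filter, 0.029 with the replicate block, 0.11 with the crossed block and 0.12 at the 25% limit. With 1 library left out it ran from -0.88 to 1.1, Ccl7 from -3.80 to 2.40 and Cxcl16 from -0.72 to 0.33.

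Border against microglia-like cells gave 96 calls without the library block, 80 with marker gates and 90 to 154 with 1 library left out. The following values no longer passed. Without the block Ccl2 was 1.84 and Ccl12 1.24. With DESeq2 Ccl12 was 1.15 and Ccl6 1.27. With no filter, which moved the median of all genes to -0.78, Ccl12 was 0.74, Ccl6 0.89 and Cxcl16 0.92. Marker gates gave 0.93 for Ccl6 and 0.97 for Cxcl16, and the 25% limit 0.90 for Ccl6. With 1 library left out, calls were kept or lost by library, and Ccl12 ran from 0.76 to 1.49, Ccl6 from 0.69 to 1.65, Ccl9 from -0.0062 to 0.92 and Cxcl16 from 0.94 to 1.79.

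Monocyte-like against microglia-like cells gave 214 calls with DESeq2, 101 without the library block and 153 to 335 with 1 library left out. Ccl2 was -1.30 with no filter and then passed, and Ccl9 was 1.45 without the block and no longer passed. With 1 library left out Ccl2 ran from -1.93 to -0.37 and Cxcl16 from -1.16 to -0.45. The cluster led by Cd74 and H2-Eb1 gave 438 calls without the block and 529 to 1039 with 1 library left out. Calls were lost without the block for Ccl12 (-1.28), Ccl6 (0.82) and Ccl9 (1.19), and for Ccl6 with DESeq2 (0.67) and with no filter (0.60). With 1 library left out Ccl2 ran from -1.46 to -0.36 and Ccl6 from 0.39 to 0.99.

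In null over het, Ccl2 was 0.80 without the 3 top cells, 2.17 over all kept cells, 1.34 over all deposited barcodes and 0.82 without the largest barcode. Ccl12 was 0.17, 0.50 at the 25% limit, 0.35 over all barcodes and 0.44 without the largest barcode. Ccl7 was -0.97 without that barcode and Ccl9 0.14 at the 25% limit. Within replicate 2, without the 3 top cells, Ccl12 was -1.99 and Ccl9 -0.71, and Ccl7 gave no ratio. The median Ccl9 level was 160 CPM over all barcodes and 170 CPM at the 25% limit. The cause of these changes was not tested. The number of libraries in which border macrophage-like cells exceeded microglia-like cells stayed within 1.5 times for each member.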
